A study of Mus musculus with 8 samples.

Results

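Expression of 8 genes of the cAMP and activity response was examined in islets of Fzd9 KO and Fzd9 WT mice, namely Creb1, Crtc2, Sik1, Npas4, Atf3, Crem, Pde4d and Pde10a. The 8 were taken as a named list out of 22180 genes that the arrays measured with a probe set of a single gene symbol, and each had 1 such probe set. The list was chosen by gene name, but with the measured differences between the genotypes on these same arrays already in view, so the Fzd9 KO against Fzd9 WT differences of the 8 are a description. They are given without p-values, and counts of the 8 past a threshold are no independent evidence of a difference. All 8 arrays came from mice on a C57Bl/6 background that carried a MycER transgene and a BclXL transgene, both driven by insulin promoters and thus directed to β-cells. MycER is a Myc protein fused to an estrogen receptor domain, and it becomes active when tamoxifen is given, whereas BclXL protects the cells against the death that Myc would otherwise trigger. The 4 Fzd9 KO mice lacked the Wnt receptor Fzd9 in the whole body, and the 4 Fzd9 WT mice had it intact. Mice of both genotypes received intraperitoneal tamoxifen for 3 days, and the study used animals of 8 to 12 wk of age. Neither untreated mice nor mice without MycER were among the arrays. The study describes each array as a pool of about 20 to 40 islets from 1 mouse, isolated by a collagenase digestion of 20 min at 37 degrees C, whereas the labels call the same material insulinoma. RNA was hybridised to a whole-transcript mouse gene array, and the values are log2 expression.

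Cyclic AMP carries hormone and nutrient signals in the β-cell, for instance those of the incretin GLP-1. It activates protein kinase A, which phosphorylates the transcription factor CREB on its DNA element, the CRE, while coactivators of the CRTC family enter the nucleus once they are dephosphorylated. The genes switched on this way include several that shut the response down again, such as the SIK kinases that send CRTC back to the cytoplasm, the ICER repressor made from an internal promoter of Crem, and phosphodiesterases, which break down cAMP. In neurons and in islets, membrane depolarisation and calcium entry switch on an overlapping set of early genes.

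The sequence that CREB reads is an 8-letter palindrome, TGACGTCA, and single copies of its 5-letter end, TGACG or, when read on the opposite strand, CGTCA, are known as half-sites. RefSeq promoter windows of the GRCm38.p6 assembly, running from 250 bases before to 50 bases after a start site, were at hand for 5 of the 8 genes (Npas4, Atf3, Creb1, Pde4d and Pde10a). The 250 bases before the start are shown for the pair of these genes that differed most between the genotypes, next to those of somatostatin (Sst), the textbook CRE gene of the islet. All 3 lie on the minus strand, at chr19:4989972-4990221 for Npas4, chr1:191183334-191183583 for Atf3 and chr16:23890845-23891094 for Sst. They read 5′ to 3′, with the half-site letters in capitals.
Npas4: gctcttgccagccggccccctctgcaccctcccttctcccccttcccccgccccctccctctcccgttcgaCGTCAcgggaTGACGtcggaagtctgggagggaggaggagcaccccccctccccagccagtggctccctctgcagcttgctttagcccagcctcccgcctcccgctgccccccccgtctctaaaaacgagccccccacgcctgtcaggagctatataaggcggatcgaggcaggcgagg
Atf3: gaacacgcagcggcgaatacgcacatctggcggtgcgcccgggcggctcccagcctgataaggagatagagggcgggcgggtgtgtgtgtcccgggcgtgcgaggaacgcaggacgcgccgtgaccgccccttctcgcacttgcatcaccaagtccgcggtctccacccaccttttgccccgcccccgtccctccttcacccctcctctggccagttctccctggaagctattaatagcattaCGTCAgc
Sst: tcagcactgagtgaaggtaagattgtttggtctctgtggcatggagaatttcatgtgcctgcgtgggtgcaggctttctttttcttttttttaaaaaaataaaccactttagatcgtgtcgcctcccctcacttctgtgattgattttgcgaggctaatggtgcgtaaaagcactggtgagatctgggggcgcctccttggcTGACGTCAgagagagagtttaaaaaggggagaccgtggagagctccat
The Npas4 window held 2 half-sites, on opposite strands, that began 179 and 169 bases before the start site, and the Atf3 window held 1, which began 7 bases before it. Each of them matched the full element in 7 of 8 letters, and neither window held the full element. A match of that length was also found in 1 of the windows of Pde10a, and 12.5% of all windows held at least 1 (1.03% held 2 or more). By contrast, the half-sites of Sst overlapped into 1 complete CRE. The windows of Creb1 and Pde4d and both windows of Pde10a held no half-site. Over all 32851 windows, 1.79% held the full CRE, 20.8% held at least 1 half-site and 5.01% held 2 or more. The AP-1 site TGAGTCA and the TATA box in the exact form TATAAA were searched too, on either strand. They were found in 5.2% and 13.6% of all windows, in that order, and no window of the 5 genes held either exact form. Variants of the TATA box were not searched. The Npas4 sequence shown above holds a run that differs from the searched form only in its last letter. The absence of that form is thus no sign that a promoter lacks a TATA box. All these matches are descriptions of letters and were not tested for binding.

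**Figure D1:**
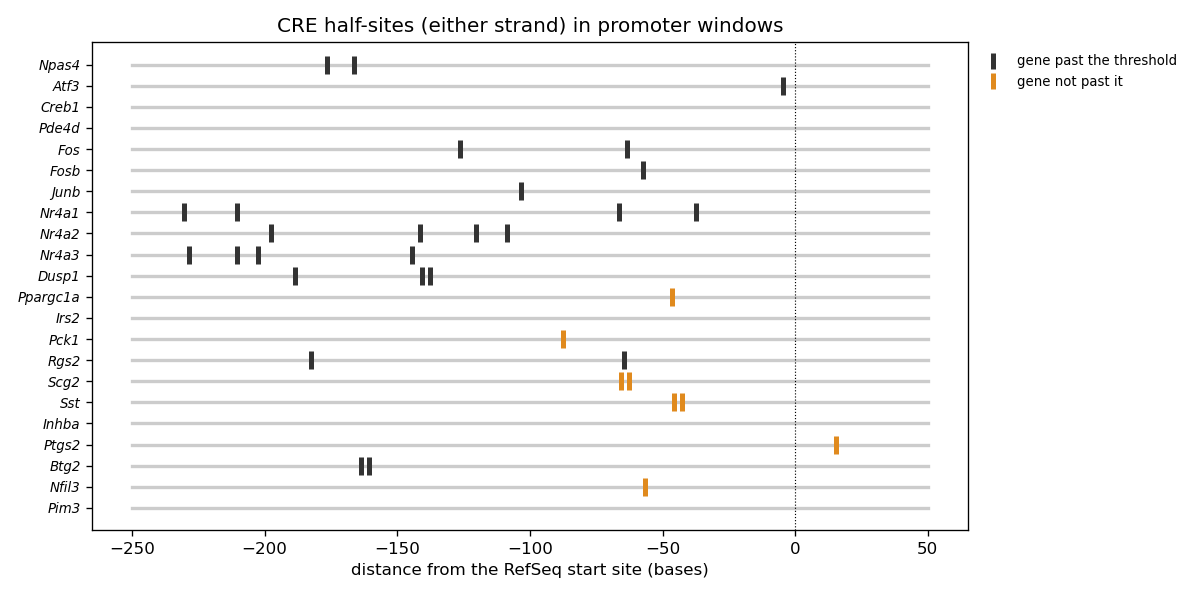
Positions of CRE half-sites on either strand (ticks) along the promoter window (grey line) of genes with exactly 1 window: 4 of the 8 genes, at the top, and other cAMP and activity-induced genes under them. The x axis is the distance in bases from the RefSeq start site; dark ticks belong to genes past the threshold in Fzd9 KO islets and orange ticks to genes not past it. Npas4 had its ticks at 179 and 169 bases before the start and Atf3 at 7, while Creb1 and Pde4d had none.

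Of the 8 genes, 3 (Npas4, Atf3 and Sik1) had lower values in Fzd9 KO islets past the study's threshold, and the other 5 did not pass it in either direction. The means were 3.93-fold lower for Npas4, 3.86-fold lower for Atf3 and 1.91-fold lower for Sik1. The Npas4 value is uncertain in size, since only 1 of 4 Fzd9 KO mice was above the background gauge described with that gene. By comparison, Creb1, Crtc2, Crem, Pde4d and Pde10a had log2 fold changes (Fzd9 KO minus Fzd9 WT) between -0.16 and 0.11. The threshold was an unadjusted p under 0.05 in limma together with a fold change of at least 1.2 in the same fit, and 1.17% of the 22180 genes were past it on the lower side and 1.28% on the higher side. In none of the 8 genes did the Fzd9 KO and Fzd9 WT mice separate without overlap, and 1.11% of genes did so on the lower side. The median log2 fold change was -0.15 over the 8 genes and -6.4e-05 over all genes. Brighter genes leaned to the lower side. Over 8492 genes with a promoter window and a level above the median of such genes, the 8 left out, it was -0.06. Of these, 1.67% were lower past the threshold and 0.471% higher. No probe set of the 41345 on the array had an adjusted p under 0.05 in limma, whereas 1444 (3.49%) had an unadjusted p under 0.05. Since bulk islets were measured, fewer cells of a type and less RNA per cell cannot be told apart in any of these values.

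**Figure D2:**
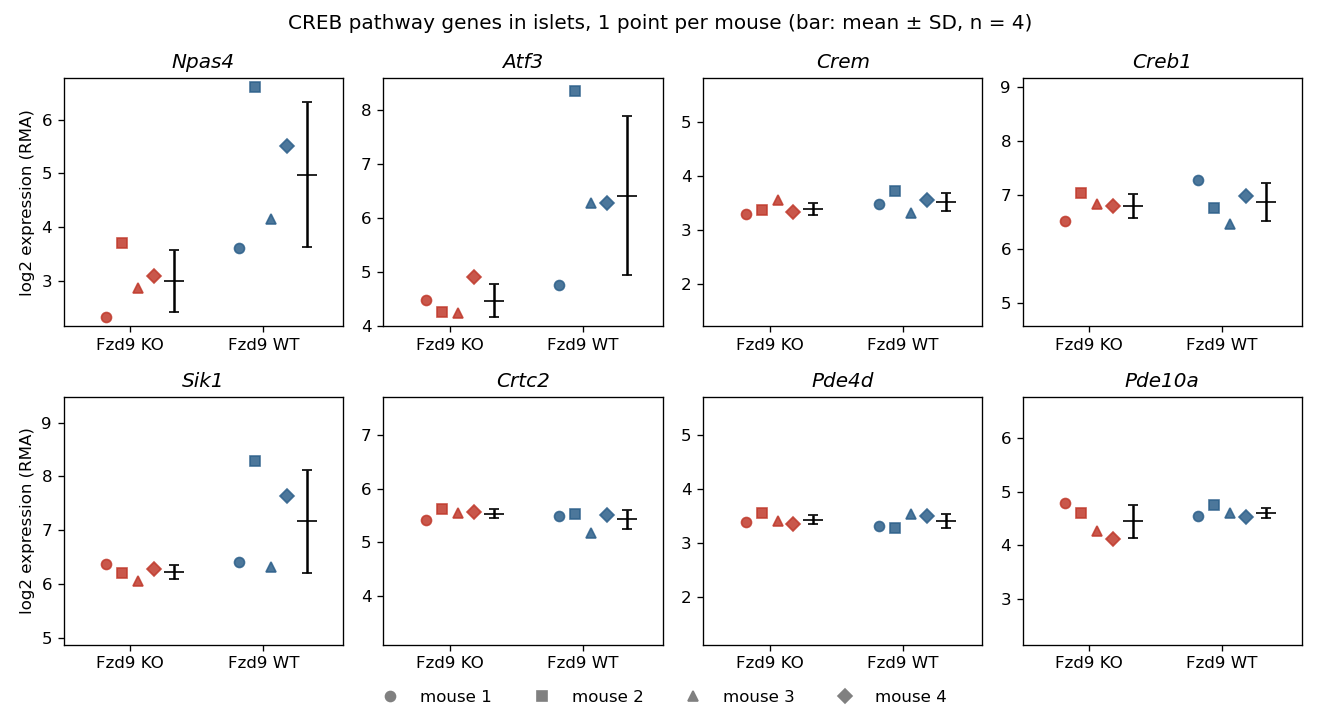
Log2 expression (y axis) of the 8 genes in each Fzd9 KO mouse (left in each panel) and each Fzd9 WT mouse (right), with the mean and SD of 4 mice. The Fzd9 KO mice have lower means and lie closer together than the Fzd9 WT mice for Npas4, Atf3 and Sik1. Their SDs are 0.57, 0.31 and 0.14 against 1.35, 1.48 and 0.96. In each of these genes the lowest Fzd9 WT mouse lies under the highest Fzd9 KO mouse, and the other 5 genes overlap widely.

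Creb1 and Crtc2, the transcription factor and the coactivator at the head of the response, had levels that overlapped between the genotypes. For Creb1, log2 expression was 6.51, 7.04, 6.84 and 6.78 in the Fzd9 KO mice, against 7.27, 6.76, 6.45 and 6.98 in the Fzd9 WT mice. Both the highest and the lowest value belonged to Fzd9 WT mice, and the log2 fold change was -0.07 (SE 0.23). Crtc2, which joins CREB at its targets when cAMP and calcium rise together, had 5.41, 5.63, 5.54 and 5.56 in the Fzd9 KO mice and 5.49, 5.53, 5.17 and 5.52 in the Fzd9 WT mice. The log2 fold change was 0.11 (SE 0.18), and the lowest value was that of Fzd9 WT mouse 3, one of the arrays that correlated least with the others. The activity of both proteins is set largely by phosphorylation, which an array does not measure.

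Sik1, the kinase that keeps CRTC proteins out of the nucleus and is itself a CREB target, was lower in Fzd9 KO islets. Its log2 expression was 6.38, 6.20, 6.06 and 6.28 in the Fzd9 KO mice, against 6.41, 8.29, 6.32 and 7.63 in the Fzd9 WT mice. Fzd9 WT mice 2 and 4 stood well above all others, whereas Fzd9 WT mice 1 and 3 were close to the Fzd9 KO mice, and Fzd9 KO mouse 1 lay above Fzd9 WT mouse 3. The means were 6.23 ± 0.14 in Fzd9 KO and 7.16 ± 0.96 in Fzd9 WT islets (SD, n = 4 each), so that the log2 fold change was -0.93 (SE 0.41). Sik1 was past the threshold in 9 of 19 alternative analyses and in 2 of the 8 that left out 1 mouse. Without Fzd9 WT mouse 2 the log2 fold change was -0.56 and without Fzd9 WT mouse 4 it was -0.78, both not past the threshold, which was also missed when any Fzd9 KO mouse was left out.

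Npas4 encodes a transcription factor that calcium entry switches on in excitable cells. Its log2 expression was 2.33, 3.71, 2.87 and 3.10 in the Fzd9 KO mice, against 3.62, 6.60, 4.16 and 5.52 in the Fzd9 WT mice. Fzd9 WT mice 2 and 4 were the highest, and the only overlap was between Fzd9 KO mouse 2 and Fzd9 WT mouse 1. The means were 3.00 ± 0.57 in Fzd9 KO and 4.98 ± 1.35 in Fzd9 WT islets (SD, n = 4 each), which gave a log2 fold change of -1.97 (SE 0.60). As a gauge of signal without a transcript, the 95th percentile of 1400 olfactory and vomeronasal receptor probe sets was taken on each array. This gauge was 4.58, 3.23, 3.48 and 4.20 in Fzd9 KO mice 1 to 4 and 3.15, 3.81, 4.03 and 3.66 in Fzd9 WT mice 1 to 4. Npas4 was above the gauge of its own array in 1 of 4 Fzd9 KO mice and in 4 of 4 Fzd9 WT mice. These counts thus depend on the background of each array as well as on Npas4. In Fzd9 KO islets the level of Npas4 was mostly within the range of the gauge.

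Atf3, a bZIP factor that is induced by many stresses as well as by cAMP, had 4.48, 4.26, 4.23 and 4.90 in the Fzd9 KO mice, against 4.75, 8.35, 6.29 and 6.27 in the Fzd9 WT mice. Fzd9 WT mouse 2 was 2.07 above the next mouse on the log2 scale, and Fzd9 WT mouse 1 lay among the Fzd9 KO mice, under Fzd9 KO mouse 4. Atf3 was above the gauge in 3 of 4 Fzd9 KO mice and in 4 of 4 Fzd9 WT mice. The means were 4.47 ± 0.31 in Fzd9 KO and 6.41 ± 1.48 in Fzd9 WT islets (SD, n = 4 each), which gave a log2 fold change of -1.95 (SE 0.61). Without Fzd9 WT mouse 2 it was -1.30 for Atf3 and -1.43 for Npas4, and both genes were past the threshold in all 19 alternative analyses.

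Crem, the relative of Creb1 whose internal promoter yields the cAMP-induced repressor ICER, was near the gauge in both genotypes. It had 3.30, 3.37, 3.55 and 3.34 in the Fzd9 KO mice and 3.49, 3.73, 3.32 and 3.56 in the Fzd9 WT mice, a log2 fold change of -0.14 (SE 0.18). Values above the gauge were found in 2 of 4 Fzd9 KO mice and 1 of 4 Fzd9 WT mice. One probe set stands for the whole gene here, so ICER and the longer Crem transcripts were not told apart.

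Pde4d and Pde10a encode enzymes that hydrolyse cAMP, and Pde10a also acts on cGMP. Pde4d had 3.39, 3.55, 3.42 and 3.35 in the Fzd9 KO mice and 3.31, 3.27, 3.54 and 3.51 in the Fzd9 WT mice. These values lay within a narrow band, above the gauge in 1 of 4 mice of each genotype, and the log2 fold change was 0.02 (SE 0.17). Pde10a had 4.80, 4.60, 4.27 and 4.12 in the Fzd9 KO mice and 4.55, 4.75, 4.60 and 4.53 in the Fzd9 WT mice, a log2 fold change of -0.16 (SE 0.21). Pde10a was above the gauge in 3 of 4 Fzd9 KO mice and in 4 of 4 Fzd9 WT mice. It was the only one of the 8 genes with a larger SD in Fzd9 KO than in Fzd9 WT islets, 0.31 against 0.10.

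**Figure D3:**
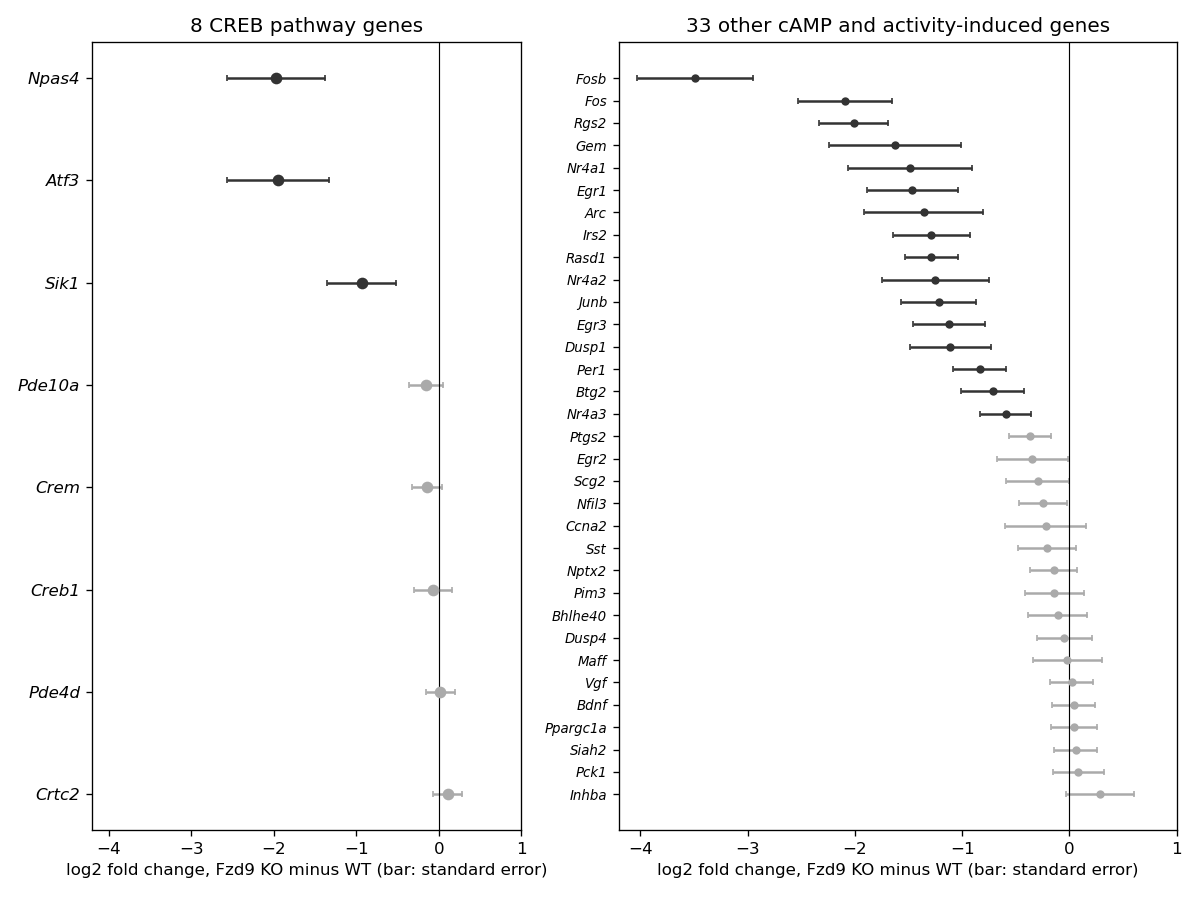
Log2 fold changes (Fzd9 KO minus Fzd9 WT; points) with their standard errors (bars) for the 8 genes (left) and for 33 other cAMP and activity-induced genes (right); dark points are past the threshold and grey points are not. Npas4 (-1.97), Atf3 (-1.95) and Sik1 (-0.93) lie left of 0, as do Fosb (-3.49) and Fos (-2.09), and the remaining 5 of the 8 lie close to 0.

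The spread among the Fzd9 WT mice was a shared feature of the genes that differed. The SD over Fzd9 WT mice was 1.35 for Npas4, 1.48 for Atf3 and 0.96 for Sik1, against a median of 0.32 over all genes, which put them at the 99.8, 99.9 and 98.7 percentiles. Over the Fzd9 KO mice the SD was 0.57, 0.31 and 0.14 for the same genes, against a median of 0.30. Averaged over the 3 genes, the deviation from the mean of all mice was -0.98, -0.65, -0.99 and -0.62 in Fzd9 KO mice 1 to 4, against -0.45, 2.37, 0.22 and 1.10 in Fzd9 WT mice 1 to 4. Fzd9 WT mouse 1 was thus nearer to the Fzd9 KO mice than to the other Fzd9 WT mice in these genes, and Fzd9 WT mouse 2 was the highest of all. It was also the highest Fzd9 WT mouse for Crem, Crtc2 and Pde10a.

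The genes with the most similar profiles were sought by the root mean square difference of log2 values over the 8 mice, after each gene's own mean was subtracted. Npas4, whose own root mean square deviation was 1.33, was nearest to Fos (0.35), followed by Gem (0.54), Mir7-2 (0.56) and Atf3 (0.57). Atf3, with a deviation of 1.34, was nearest to Egr4 (0.48), Il1b (0.57), Npas4 (0.57) and Fos (0.60). Fos and Egr4 are early-response transcription factors, Gem is a small GTPase that dampens calcium channels, and Il1b is an inflammatory cytokine. For Crem, which varied little (0.14), the nearest were 1700088E04Rik (0.061), Wrnip1 (0.065), Ephb6 (0.070) and Adamtsl4 (0.076).

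**Figure D4:**
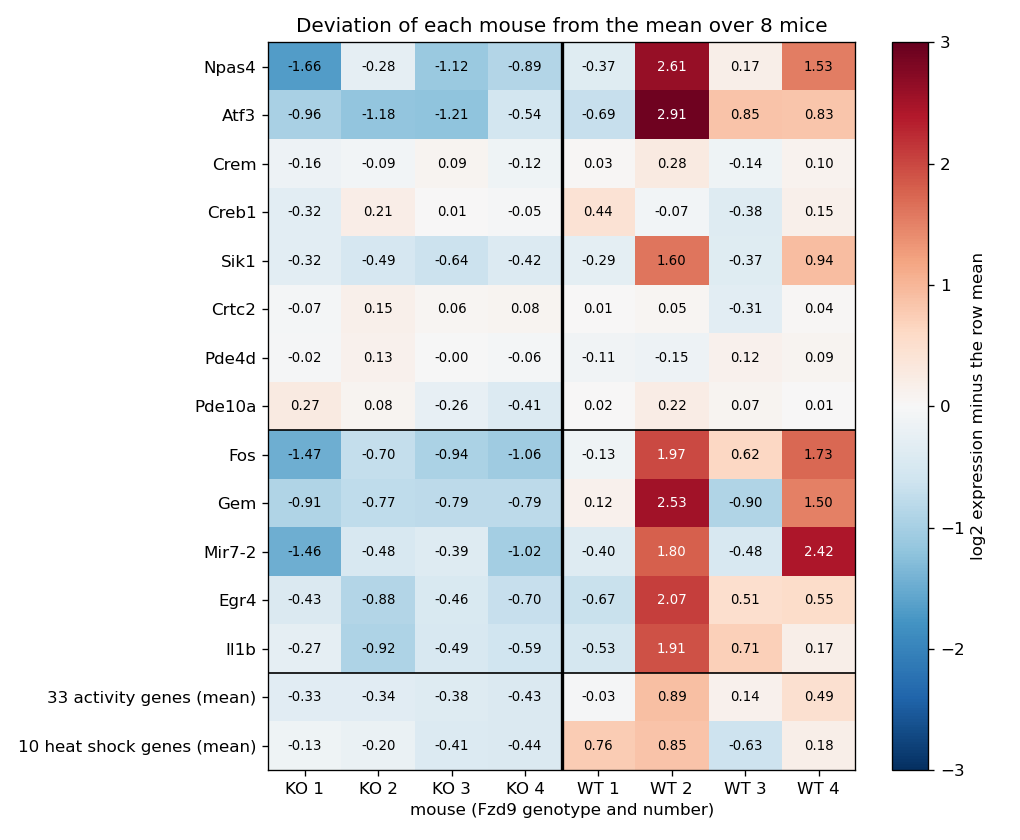
Deviation of each mouse (columns, Fzd9 KO left of Fzd9 WT) from the row mean over 8 mice in log2 units (colour and printed value), for the 8 genes, for genes with profiles near Npas4 or Atf3, and for the means of the measured activity genes and heat shock genes. Npas4, Atf3 and Sik1 were highest in Fzd9 WT mouse 2, as were Fos, Gem, Egr4 and Il1b, whereas Mir7-2 was highest in Fzd9 WT mouse 4.

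Beyond the 8, other cAMP and activity-induced genes were lower in Fzd9 KO islets in 16 of 33 measured cases past the threshold and higher in 0. Over all genes, 1.17% were lower and 1.28% higher past it. The list of 33 was put together with earlier results of these data known, and its median log2 fold change was -0.37. Fosb, an AP-1 subunit, had 5.67, 6.70, 5.45 and 6.42 in the Fzd9 KO mice, against 7.86, 10.54, 9.74 and 10.04 in the Fzd9 WT mice. The genotypes did not overlap, and the log2 fold change was -3.49 (SE 0.54, unadjusted p = 8.08e-05, adjusted p = 0.668). Rgs2, which shortens G-protein signals, fell by 2.01 on the log2 scale (SE 0.32, unadjusted p = 0.00011, adjusted p = 0.759), and a dimmer probe set of the gene had -1.13 (SE 0.35). Rasd1, a Ras-like protein named for its induction by dexamethasone, fell by 1.29 (SE 0.24, unadjusted p = 0.00039, adjusted p = 1.00). The others past the threshold were Fos (-2.09), Gem (-1.63), Nr4a1 (-1.49), Egr1 (-1.46), Arc (-1.36), Irs2 (-1.29), Nr4a2 (-1.25), Junb (-1.22), Egr3 (-1.12), Dusp1 (-1.11), Per1 (-0.84), Btg2 (-0.72) and Nr4a3 (-0.59). Of the 16 genes, 10 had no overlap between genotypes, against 1.11% of all genes on the lower side. A lack of overlap follows in part from their choice as genes past the threshold. All 16 were highest in Fzd9 WT mouse 2 among the Fzd9 WT mice and had the larger SD in Fzd9 WT islets. How often other genes past the threshold had this mouse order or the larger SD in Fzd9 WT islets was not counted. Among the 17 not past the threshold were further cAMP-responsive genes. Their log2 fold changes were -0.37 for Ptgs2, -0.30 for Scg2, -0.21 for Sst, 0.04 for Bdnf and 0.05 for Ppargc1a. Of these, Ptgs2, Bdnf and Ppargc1a had mean levels under the 95th percentile of the receptor probe sets (3.52), as did Egr3 among the 16. This limits how well a difference could be seen in them, and 23 of the 33 genes were above that level. Without Fzd9 WT mouse 2, or without Fzd9 WT mouse 4, the count past the threshold was 10.

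Of the 33, 22 genes had a promoter window. At least 1 half-site was found in 10 of the 11 that fell and in 9 of the 11 that did not pass the threshold, and the full CRE in 2 of the 11 that fell (Dusp1 and Btg2) and 3 of the other 11. Across 16985 genes with a window, the 8 genes left out, 26.8% had a half-site. Of the 450 genes with a full CRE, 8 were lower in Fzd9 KO islets past the threshold (1.78%) and 1 was higher (0.222%), against 185 lower (1.09%) and 211 higher (1.24%) of all genes with a window. The full-CRE genes that fell were Dusp1 (-1.11), Dusp8 (-1.03), Ppp1r15a (-0.86), Btg2 (-0.72), Snhg15 (-0.67), Mcm5 (-0.64), Tiprl (-0.56) and Pot1a (-0.52), and Gzmf (0.99) was the 1 that rose. Genes with a full CRE had a higher median level, 4.43 against 3.40. In a comparison chosen after the data were seen, of genes above the median level of all genes with a window, 7 of 322 full-CRE genes (2.17%) and 142 of 8492 genes in all (1.67%) were lower.

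In the lists of genes that act upstream of CREB, or beside it as coactivators and relatives, no gene passed the threshold. None of the 8 measured CREB coactivators and partners did, with a median log2 fold change of -0.17, nor did any of the 11 SIK and LKB1 kinases (-0.14), the 27 genes of cAMP production and protein kinase A (-0.10), the 11 Gs-coupled islet receptors (-0.18) or the 20 calcium channels and calcium-sensing kinases (-0.02). Mean levels were above the 95th percentile of the receptor probe sets (3.52) for 7 of the 8 coactivators and partners and 10 of the 11 kinases. They were above it for 18 of the 27 cAMP production genes, 5 of the 11 Gs-coupled receptors and 17 of the 20 calcium genes. This limits how well a difference could be seen in the genes of these lists. The lowest unadjusted p among them was that of Prkar1a, the regulatory subunit that holds protein kinase A inactive, with a log2 fold change of -0.45 (SE 0.21, unadjusted p = 0.0576, adjusted p = 1.00). Its genotypes did not overlap, and it was past the threshold in 5 of 19 alternative analyses, among them the one without Fzd9 KO mouse 1 (-0.54). With 1 mouse left out, its log2 fold change ran from -0.54 to -0.34. Fzd9 WT mouse 1 lay apart, at 7.28 against 6.86 in each of the other Fzd9 WT mice. Sik2, a relative of Sik1, had 0.29 (SE 0.28, unadjusted p = 0.332). Creb3l2, a membrane-bound CREB relative, had -0.43 (SE 0.21, unadjusted p = 0.0674), and Crebzf and Creb5 had -0.37 and -0.34. Of the kinases, Cab39 and Stradb, both partners of LKB1, had -0.33 and -0.24. Akap11 and Akap5, which anchor protein kinase A, had -0.57 and 0.32. Among receptors, Ptger4 had -0.47, Mc2r 0.38 and Ptgir 0.31, and in the calcium list Camk1d had 0.37, Ppp3cb -0.34 and Cacna1d 0.19. Of the genes named here, Creb5, Stradb, Mc2r, Ptgir and Camk1d had mean levels under the 95th percentile of the receptor probe sets.

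Among 22 other phosphodiesterases 1 passed the threshold, on the lower side, and the median log2 fold change was -0.04. It was Pde5a, which hydrolyses cGMP rather than cAMP, with 4.87, 4.95, 4.82 and 4.74 in the Fzd9 KO mice, against 6.34, 5.14, 5.23 and 5.42 in the Fzd9 WT mice. The genotypes did not overlap, and Fzd9 WT mouse 1 was well above the rest. The log2 fold change was -0.69 (SE 0.27, unadjusted p = 0.0304, adjusted p = 1.00), and without Fzd9 WT mouse 1 it was -0.42 and not past the threshold, which was also missed without Fzd9 KO mouse 1, 3 or 4 (-0.70 to -0.65). Pde6d and Pde1c had -0.35 and 0.38, neither past it.

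Among 15 relatives and binding partners of Atf3, Jun passed the threshold and the median log2 fold change was -0.13. Jun, the AP-1 subunit that pairs with ATF3, had 7.90, 7.93, 7.92 and 7.96 in the Fzd9 KO mice, against 9.00, 9.81, 9.25 and 9.44 in the Fzd9 WT mice. The Fzd9 KO mice were close to each other (SD 0.02) and under every Fzd9 WT mouse, with a log2 fold change of -1.45 (SE 0.21, unadjusted p = 4.98e-05, adjusted p = 0.605). Jund had -0.50 (SE 0.24, unadjusted p = 0.0592) and Atf6b -0.28. None of the 12 partners and bHLH-PAS relatives of Npas4 passed the threshold, with a median of -0.14. Ahr had -0.45, Npas2 -0.40 and Hif1a -0.37. The mean level of Npas2 was under the 95th percentile of the receptor probe sets. Over all 169 genes of the lists, the heat shock list among them, 20 were lower past the threshold and 0 were higher, with a median of -0.14. Of the 20, 16 came from the list of other cAMP and activity-induced genes. Over all genes, 1.17% were lower and 1.28% higher past the threshold. Among the 8492 brighter genes with a promoter window these shares were 1.67% and 0.471%, so a count of 0 higher is near that share. None of the 169 genes had an adjusted p under 0.05 in limma.

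Heat shock genes are induced by stress, including that of tissue handling. Of 10 measured genes, 2 were lower in Fzd9 KO islets past the threshold and 0 were higher, with a median log2 fold change of -0.42. Dnajb1 fell by 1.19 (SE 0.42, unadjusted p = 0.0177, adjusted p = 1.00) and Hsph1 fell by 1.08 (SE 0.38, unadjusted p = 0.0181, adjusted p = 1.00), while Hspa1a had -1.33 (SE 0.66, unadjusted p = 0.0740). The mean of the list was 5.67, 5.60, 5.38 and 5.36 in the Fzd9 KO mice, against 6.56, 6.65, 5.17 and 5.98 in the Fzd9 WT mice. Fzd9 WT mouse 2 was the highest here too, but Fzd9 WT mouse 1, low in Npas4 and Atf3, was next to it, and Fzd9 WT mouse 3 was the lowest of all 8. The number of heat shock genes lower past the threshold was 7 without Fzd9 WT mouse 3 and 1 without Fzd9 KO mouse 3. Their part in the values of Npas4, Atf3 and Sik1 was not tested.

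None of the markers of islet and other cell types was past the threshold. The mean of the 9 measured β-cell markers was 6.68 to 7.02 in the Fzd9 KO mice and 6.56 to 7.45 in the Fzd9 WT mice, and that of the 4 α-cell markers 5.05 to 5.38 in the Fzd9 KO mice and 5.29 to 5.72 in the Fzd9 WT mice. Acinar markers (11 measured) ranged over 4.06 to 6.50 in Fzd9 KO and 4.07 to 5.80 in Fzd9 WT islets, endothelial markers (6) over 5.23 to 6.77 and 4.60 to 6.73, mesenchymal markers (6) over 3.79 to 4.68 and 3.68 to 5.79, and macrophage and leukocyte markers (7) over 3.68 to 4.18 and 3.85 to 4.54, in the same order of genotypes. Fzd9 WT mouse 2 had the highest duct, endothelial, macrophage and mesenchymal means of the Fzd9 WT mice and the lowest β-cell and acinar means. Their part in the result was not tested. Fzd9 itself, the deleted gene, had 2.68, 2.76, 2.65 and 2.01 in the Fzd9 KO mice and 3.44, 1.97, 2.78 and 3.31 in the Fzd9 WT mice. The genotypes overlapped, and the lowest value of all was that of Fzd9 WT mouse 2. Both means, 2.53 and 2.88, were under the 95th percentile of the receptor probe sets (3.52 over mean levels), and the position of the probes with respect to the deleted sequence was not determined, so this is no check of the genotype labels. Array medians lay between 2.90 and 3.17, and Fzd9 KO mouse 1 and Fzd9 WT mouse 3 had the lowest mean correlation with the other arrays, 0.893 and 0.897, against 0.917 to 0.926 for the rest.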

How the data were processed

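Total RNA from 4 Fzd9 KO and 4 Fzd9 WT mice was measured on 1 array each. The authors summarised and normalised the arrays with RMA and used Partek, per the labels' processing notes, and deposited log2 values, which were used as they stand; their versions are not given in the sources used here. The methods describe isolated islets, whereas the labels describe weighed tumour tissue. Genes were named where a probe set had exactly 1 symbol (23521 of 41345, of which 23328 through the Entrez ID), and the probe set with the highest mean stood for a gene. Genotypes were compared with limma 3.58.1 in R 4.3.3 (lmFit and eBayes, two-sided, Benjamini-Hochberg over all probe sets), at the study's threshold, and fold changes are differences of log2 means. The script was tested on simulated data. Each gene of the 8 is reported. From every pathway list the 3 genes with the lowest unadjusted p are named, and the 4 genes nearest to Npas4, Atf3 and Crem; further list genes, and those with a full CRE, were named after their values were seen. The genes and lists were chosen with earlier results of these data known. Neither the labels nor the study say that mouse numbers pair the mice, and they were not treated as pairs in the main fit. Deviations of same-numbered mice correlated at -0.10, 0.02, 0.07 and 0.24. Mice with different numbers were not compared in this way, so these values cannot settle whether the mice are paired. Nothing gives litters or batches, and 4 arrays per genotype limit the precision. Alternatives covered scaling between arrays, the variance model, the methods' t-test (named in the study for comparisons of 2 groups in general; no test is named for the arrays), a filter on dim probe sets, the mean over probe sets of a gene, the mouse number as a block, and mice left out.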

Additional observations from a re-analysis of the deposited data

Results flagged for a closer look

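In 4 of 76 groups of 4 mice that were looked at, 1 mouse stood far from the other 3, and chance flags about 1 in 20 groups, or 3.8 here. Crtc2 was lowest in Fzd9 WT mouse 3, at 5.17 against 5.49 to 5.53 in the other Fzd9 WT mice. Ahr, the dioxin receptor, was highest in Fzd9 WT mouse 2, at 5.25 against 3.81 to 4.03. Pde1c was highest in Fzd9 WT mouse 2, at 3.96 against 3.33 to 3.38. Prkar1a was highest in Fzd9 WT mouse 1, at 7.28 against 6.86 in each of the others.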

How the results depend on the processing

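Npas4 and Atf3 stayed lower past the threshold in all 19 alternatives, with log2 fold changes of -2.43 to -1.43 and -2.51 to -1.30, while Sik1 ranged over -1.26 to -0.56 and missed it in 10 of them. Crem, Creb1, Crtc2, Pde4d and Pde10a passed it in none, and Creb1 and Pde4d took either sign. With 1 mouse left out, 2 to 3 of the 8 genes were lower past the threshold, the median over the 8 was -0.21 to -0.09, 1201 to 1913 probe sets passed, and 14 to 26 genes of the pathway lists were lower and 0 to 2 higher. Pathway genes higher past the threshold numbered 1 with array weights, 1 by the methods' t-test, which the study does not name for arrays (1622 probe sets with an unadjusted p under 0.05, 0 after adjustment) and 3 without Fzd9 WT mouse 3 and Fzd9 KO mouse 1, where Creb5 also turned to 0.13; the cause was not tested. Restricting the fit to probe sets above the median level left 630 past the threshold, 382 of them lower and 248 higher. Sik1 kept its log2 fold change of -0.93 there but missed the threshold. Fewer probe sets were tested in that fit, so its counts are out of a smaller number. The unadjusted p of the threshold does not depend on that number. In limma, however, the variance of a probe set is estimated with help from all those in the fit. Its p can thus change while its log2 fold change does not. What lay behind the shift in the counts was not tested. With the mouse number as a replicate block, 1484 probe sets passed, 708 of them lower, and 3 of the 8 genes were lower. Lower and higher probe sets numbered 658 and 786 as deposited, 796 and 726 after quantile normalization, 773 and 631 after centring and 799 and 735 after cyclic loess. The heat shock genes that were lower numbered 2, but 5 with array weights, 4 with the block or with the mean over probe sets, and 1 by the methods' t-test. Of the named pathway genes not past the threshold, Hspa1a passed it in 6 alternatives, Prkar1a in 5, Mc2r in 4, Jund in 3, Creb3l2, Ppp3cb and Ptger4 in 2 each and Akap11, Atf6b and Pde6d in 1 each. Npas4 in Fzd9 KO islets, Crem and Pde4d lay near the signal of the receptor probe sets, which limits how well a difference could be seen there. Mean levels of Mc2r and Creb5, named above, were also under the 95th percentile of those probe sets.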
